A study of Homo sapiens with 47 samples.

Results

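The 10 genes POU5F1, NANOG, PRDM14, DPPA2, DPPA4, ZFP42, L1TD1, UTF1, USP44 and VRTN are expressed in undifferentiated human pluripotent cells. They were chosen by name, with earlier results of these data known, and make up 10 of the 58051 genes listed in each library. The study followed H9 (WA09) cells, an established human embryonic stem cell (hESC) line, through 3 independent differentiations named r1, r2 and r3. The first group, t0, is undifferentiated hESCs in mTESR1 medium, collected the day after seeding. The 36h group had been in N2B27 medium without vitamin A, with the WNT agonist CHIR-99021, rhFGF2, the retinoic acid receptor inverse agonist AGN193109 and the ROCK inhibitor Y-27632, and is labelled as neuromesodermal progenitor (NMP)-like cells. P1 to P10 are successive passages in the same medium, labelled pre-neural progenitors and neural crest. Whole cultures gave 35 libraries with 3 at each time point except P9, where 2 were analysed. A further 12 libraries came from P5 and P8, where epithelial (EPI) and mesenchymal (MES) cells were enriched by selective detachment, with 3 libraries each. All libraries come from 1 cell line, and no other line was analysed here.

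Pluripotency is the capacity of a cell to form all tissues of the body. It is held by a small network of transcription factors that activate their own genes and each other's. POU5F1 (OCT4) and NANOG are at its centre, POU5F1 binding DNA together with SOX2 at a composite site. PRDM14 is a transcriptional regulator of the same network in human cells. DPPA2 and DPPA4 are chromatin-associated proteins that act as a pair. UTF1 is a chromatin-associated factor and ZFP42 (REX1) a zinc finger protein, both long used as markers of the undifferentiated state. L1TD1 is an RNA-binding protein derived from a LINE-1 element, and USP44 is a deubiquitinase that acts on histone H2B. VRTN (vertnin) is a DNA-binding protein known for its association with vertebral number in pigs. In the embryo POU5F1 and NANOG persist into the epiblast and are silenced as the trunk forms, so the passage from hESC to NMP-like cell to neural progenitor crosses the end of their expression.

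The promoters of NANOG and UTF1 are shown here for the motifs they hold, and were chosen after the matches had been seen. That of NANOG holds all but the last base of a site for the POU5F1 and SOX2 pair, and that of UTF1 holds more GC boxes than any other of the promoters matched. Sequences are those of RefSeq on GRCh38.p14, from 250 bases before to 50 bases after the gene's start, 5′ to 3′ on the gene's strand. RefSeq entries were matched for 7 of the 10 genes, and POU5F1, PRDM14 and USP44 are named only. The NANOG promoter lies at chr12:7789152-7789451 on the plus strand, and its capitals mark the composite site without its last base. The UTF1 promoter lies at chr10:133229967-133230266 on the plus strand, and its capitals mark the GC boxes.
NANOG: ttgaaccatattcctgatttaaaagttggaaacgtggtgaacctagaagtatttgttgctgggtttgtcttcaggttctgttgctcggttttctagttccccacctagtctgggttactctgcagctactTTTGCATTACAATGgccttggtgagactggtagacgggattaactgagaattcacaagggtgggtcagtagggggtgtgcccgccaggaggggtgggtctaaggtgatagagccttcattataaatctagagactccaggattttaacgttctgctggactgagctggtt
UTF1: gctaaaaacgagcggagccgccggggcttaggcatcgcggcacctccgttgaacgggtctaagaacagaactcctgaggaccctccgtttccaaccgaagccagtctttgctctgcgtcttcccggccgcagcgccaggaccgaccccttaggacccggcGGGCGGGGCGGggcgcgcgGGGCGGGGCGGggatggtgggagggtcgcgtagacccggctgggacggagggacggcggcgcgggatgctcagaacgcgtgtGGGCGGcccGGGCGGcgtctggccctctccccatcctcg

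Each motif was searched on both strands of the 7 promoters and of all 35116 promoters of the same length. The OCT-SOX composite site was in 2 of the 35116 promoters and in none of the 7. Without its last base, a form added after the NANOG promoter had been seen, it was in 3 promoters (0.00854%), of which NANOG is 1. That match, TTTGCATTACAATG, covers chr12:7789282-7789295, begins 120 bases before the start and reads CATTGTAATGCAAA on the other strand. The octamer ATGCAAAT (1.77% of all promoters), the SOX site CATTGTT (3.33%) and the TCF/LEF site CTTTGAT (2.62%) were in none of the 7. The composite site overlaps the letters of the octamer. The GC box GGGCGG was in 4 of the 7 (DPPA4, ZFP42, L1TD1 and UTF1) against 45.0% of all promoters, with 6 matches in UTF1. TATAAA was in 1 of the 7, NANOG, where it begins 1 base before the RefSeq start, against 11.5% of all promoters. The GC content ran from 45.3% in DPPA4 to 71.7% in UTF1, which lie at percentiles 21.3 and 84.2 of all promoters. These matches describe letters within a short window only.

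The genes lie on 8 chromosomes of GRCh38 in GENCODE 29. NANOG (chr12:7787794-7799141) and USP44 (chr12:95516560-95551490) share chromosome 12. DPPA2 (chr3:109293788-109316517) and DPPA4 (chr3:109326141-109337572) are neighbours on the minus strand with 9623 bases between them. The other members are POU5F1 (chr6:31164337-31180731), ZFP42 (chr4:187995771-188005050), L1TD1 (chr1:62194831-62212328), UTF1 (chr10:133230274-133231558), VRTN (chr14:74303069-74360008) and PRDM14 on chromosome 8. All are annotated as protein-coding, and the values below are per gene over all of its exons. POU5F1 overlaps TCF19 on the opposite strand, which had 864 to 1141 counts at t0, and the strand setting of the counting is not given in the sources used here.

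At t0 the 10 genes spanned a range from 1636 to 2.91 in TPM, the abundance that RSEM scales by transcript length and by library. POU5F1 was the most abundant at 1636 ± 98.8 TPM (SD, n = 3), followed by DPPA4 at 736 ± 59.3 TPM and L1TD1 at 435 ± 38.4 TPM. USP44 stood at 218 ± 24.3 TPM, ZFP42 at 167 ± 12.1 TPM, NANOG at 99.2 ± 5.30 TPM, VRTN at 80.4 ± 2.37 TPM and PRDM14 at 39.2 ± 5.02 TPM. UTF1 with 3.53 ± 0.355 TPM and DPPA2 with 2.91 ± 0.522 TPM were far below the rest. The ranges of neighbours in this order did not overlap over the 3 libraries, except those of UTF1 and DPPA2. DPPA2 was thus listed at a small fraction of the level of its partner DPPA4 in the undifferentiated cells.

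Depth set what could be seen of the loss. Totals ran from 13029491 to 64082859 counts per library, and the 2 shallowest libraries were P4.r3 and P6.r3. Normalized counts are counts divided by a size factor per library, and "percent of t0" is the normalized count of a library over that of the t0 library of the same differentiation. A count of 3 served as the floor under which a remainder was not read, and this covers counting error only, since the reads had no molecular identifiers. A fold given below as "at least" is the mean at t0 over the mean that 3 counts per library would give. It holds for the mean of a group, and the bound of a single library can be lower. For POU5F1, with 54856 to 70566 counts at t0, it corresponds to 0.00376% to 0.018% of t0 in the later libraries. For UTF1, with 96 to 116 counts at t0, it corresponds to 2.05% to 10.9%, and for DPPA2, with 104 to 111 counts, to 1.92% to 12.2%, so that smaller remainders were not detectable at this depth. A gene was called when its adjusted p (edgeR quasi-likelihood F-test, Benjamini-Hochberg) was under 0.01, its fold change at least 2 and its mean normalized count in the 2 groups at least 100, and UTF1 and DPPA2 missed the last of these in every comparison with t0.

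The question of which genes go first was put by comparing 36h with t0. In the mean over differentiations UTF1, PRDM14 and USP44 kept the least and VRTN kept the most. USP44 fell by 2.60 on the log2 scale (SE 0.341, adjusted p = 1.8e-05) and was the 1 member called, where 1.35% of the 21750 genes tested were called lower. Its normalized counts were 19470, 16980 and 19220 at t0 and 5692, 3033 and 2086 at 36h in r1, r2 and r3, and the groups did not overlap. USP44 thus kept 29.2%, 17.9% and 10.9% of t0. Its call at 36h was lost without all r2 or all r3 libraries and without the replicate block, with 0 members called in each (adjusted p of USP44 0.012, 0.025 and 0.033), while 2 were called without r1. With only the 2 groups compared 0 members were called.

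PRDM14 had 2510, 2434 and 1989 normalized counts at t0 and 666, 178 and 104 at 36h, which left 26.5%, 7.31% and 5.20%. The 2 groups did not overlap, but the adjusted p was 0.013 and the gene was not called (log2 fold change -3.50, SE 0.895). UTF1 had 96, 112 and 116 counts at t0 and 13, 2 and 0 at 36h. This left 15.9% in r1 and 2.01% in r2, at or under the floor in r2 and r3, and the adjusted p of 0.0096 passed while the mean count of 51.5 did not. All 3 genes were lower at 36h than at t0 in every differentiation.

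NANOG and POU5F1, the central factors, differed at 36h from one differentiation to the next. NANOG had 4514, 4008 and 4428 normalized counts at t0 and 3833, 1906 and 85.4 at 36h. It thus kept 84.9% in r1, 47.6% in r2 and only 1.93% in r3. The groups did not overlap, but the gene was not called (log2 fold change -2.54, SE 1.11, unadjusted p = 0.032, adjusted p = 0.15). POU5F1 went from 57410, 55340 and 54300 normalized counts to 46180, 36850 and 20490, or 80.5%, 66.6% and 37.7% of t0. Its log2 fold change of -0.91 (SE 0.948) had an adjusted p of 0.60. In r3 NANOG was therefore nearly gone at a time when 37.7% of POU5F1 was left, whereas in r1 both were above 80%.

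VRTN stood at 106.5%, 105.8% and 76.0% of t0 at 36h, the highest share of the 10 genes in each of the 3 differentiations. The remaining members kept between 20.3% (L1TD1 in r3) and 74.8% (DPPA4 in r1). At 36h 5 members were under 50% of t0 in r1, 4 in r2 and 9 in r3. The 3 that were under 50% in all differentiations were UTF1, PRDM14 and USP44. Of the 45 pairs of members, 32 had the same order of percent of t0 in all 3 differentiations at 36h.

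**Figure D1:**
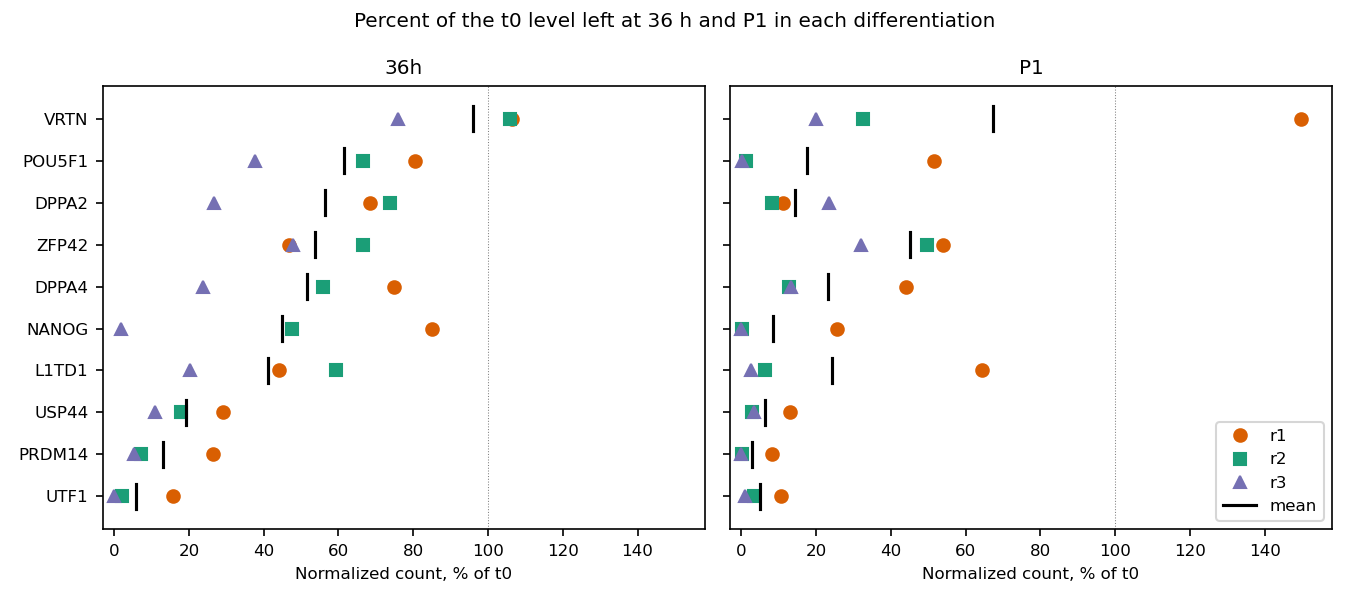
Percent of the t0 level left at 36h (left) and P1 (right) for each of the 10 genes, with 1 point per differentiation (r1, r2, r3) and a bar at their mean; the horizontal axis is linear and the dotted line is 100%. At 36h the points of UTF1, PRDM14 and USP44 all sit under 30% and those of VRTN at 76.0% or more, and at P1 the r1 point is the highest of the 3 for 9 of 10 genes.

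At P1, 5 members were called lower than at t0 (POU5F1, NANOG, PRDM14, DPPA4 and USP44), against 5.29% of all genes tested. POU5F1 fell by 4.28 on the log2 scale (SE 1.2, adjusted p = 0.0063), NANOG fell by 5.86 (SE 1.29, adjusted p = 0.0013) and PRDM14 fell by 6.38 (SE 1.07, adjusted p = 0.00013). USP44 fell by 4.39 (SE 0.370, adjusted p = 1e-08) and DPPA4 fell by 2.25 (SE 0.599, adjusted p = 0.0057). ZFP42, L1TD1 and VRTN were not called, with adjusted p of 0.072, 0.022 and 0.067. The median log2 fold change of the members was -1.19 at 36h and -3.61 at P1, against 0.00 and 0.01 over all genes tested. Without the library P1.r1 the count of members was 6, and without all r2 or all r3 libraries it was 1. It was 2 without the replicate block and 0 with only the 2 groups compared.

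At P1 the differentiation r1 stood apart. POU5F1 was at 29520 normalized counts in P1.r1 but at 643 in P1.r2 and 168 in P1.r3, or 51.4%, 1.2% and 0.309% of t0. NANOG was at 1160, 3.73 and 0 normalized counts, or 25.7% in r1 and 0.0931% in r2, while 0 counts in r3 allow up to 0.0529%. VRTN was at 150% of t0 in P1.r1, above all other whole-culture libraries, and at 32.5% and 20.1% in r2 and r3. L1TD1 was at 64.3%, 6.24% and 2.53% of t0.

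The median over the 10 members was 34.8% of t0 in P1.r1, 4.77% in P1.r2 and 2.95% in P1.r3. The most was left in r1 for 7 of 10 members at 36h, 9 at P1, 7 at P2, 8 at P3 and 4 at P4, with DPPA2 the exception at P1. Among the 1885 genes called lower at P10 than at t0, which include members, r1 had the most left in 60.6% at 36h, 61.3% at P1, 56.9% at P2, 59.5% at P3 and 56.9% at P4. With only 10 members, most of their shares were near these, and a difference from them was not tested. Later, r1 had the most left for 3 of 10 members at P5, 6 at P6, 6 at P7, 5 at P8 and 3 at P10. Among the 1885 genes the shares were then 52.2%, 49.8%, 50.3%, 52.1% and 60.5%. The medians of these genes at P1 were 51.7%, 35.4% and 40.2% of t0 in r1, r2 and r3. Markers of NMP-like cells (TBXT, CDX1, CDX2, NKX1-2 and WNT8A) also differed between the differentiations. Their summed level was 309 TPM in 36h.r1, 1000 in 36h.r2 and 1249 in 36h.r3, and 1061, 426 and 167 TPM at P1. The genes of this list did not move together at P1. NKX1-2, at 56630, 838 and 67.2 normalized counts in r1, r2 and r3, and CDX2, at 14630, 6089 and 2082, were highest in r1. CDX1, at 1379, 5680 and 2998, and WNT8A, at 522, 3030 and 1143, were lowest in r1. TBXT was at 2911, 2972 and 544. The summed level at t0 was between 14.6 and 17.0 TPM. The neural progenitor list (SOX1, SOX3, POU3F2 and PAX6) summed to 18.3, 4.15 and 1.49 TPM at 36h and 23.4, 3.99 and 5.04 TPM at P1. SOX3 of this list was already at 12.8 to 20.3 TPM at t0. The part of these markers in the difference between differentiations was not tested. In whole cultures, fewer cells with a transcript and less of it per cell cannot be told apart.

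From one sample to the next, the loss between 36h and P1 passed the test for USP44 alone (log2 fold change -1.80, SE 0.333, adjusted p = 0.0022), where 0.699% of all genes were called lower. Of the members, 7 had an unadjusted p under 0.05 in this step. Without P1.r1 the count rose to 4 members, and it was 0 without all r2 or all r3 libraries, without the block and with only the 2 groups compared. Between P1 and P2 edgeR called 0 members (0.0046% of all genes were called lower), 6 had an unadjusted p under 0.05 and DESeq2 called 3 (0.202% of all genes). In that step POU5F1 had an adjusted p of 0.042 (log2 fold change -4.87, SE 1.12), with 871, 10.8 and 13.0 normalized counts left at P2. Between P2 and P3 edgeR (0% of all genes called lower) and DESeq2 (0.0874%) both called 0 members, and 3 had an unadjusted p under 0.05.

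By P2, 8 of the 10 members were called lower than at t0 (6.82% of all genes tested), which is every member with enough counts to be called, and 4 or 5 without all r2 or all r3 libraries and 5 with only the 2 groups compared. The same count held at P3 (7.7%), P4 (7.68%), P7 (7.78%), P8 (7.6%), P9 (9.29%) and P10 (8.67%), and 7 were called at P5 (7.73%) and P6 (7.77%). The 1 missing at P5 and P6 was L1TD1, with adjusted p of 0.029 and 0.016. Every log2 fold change of the 10 members against t0 was below 0 from 36h to P10 in this fit. With each gene at or under the floor in a whole group set to the bound that 3 counts per library allow (2 members at P2, P3 and P5 and 6 at P10), the median log2 fold change of the members was -4.47 at P2, -5.78 at P3, -7.86 at P5 and -9.27 at P10. The medians of the fitted values, which are no bounds for such genes, were -4.93, -6.54, -8.99 and -10.7. All time points share the t0 libraries, so these counts are not independent of each other.

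**Figure D2:**
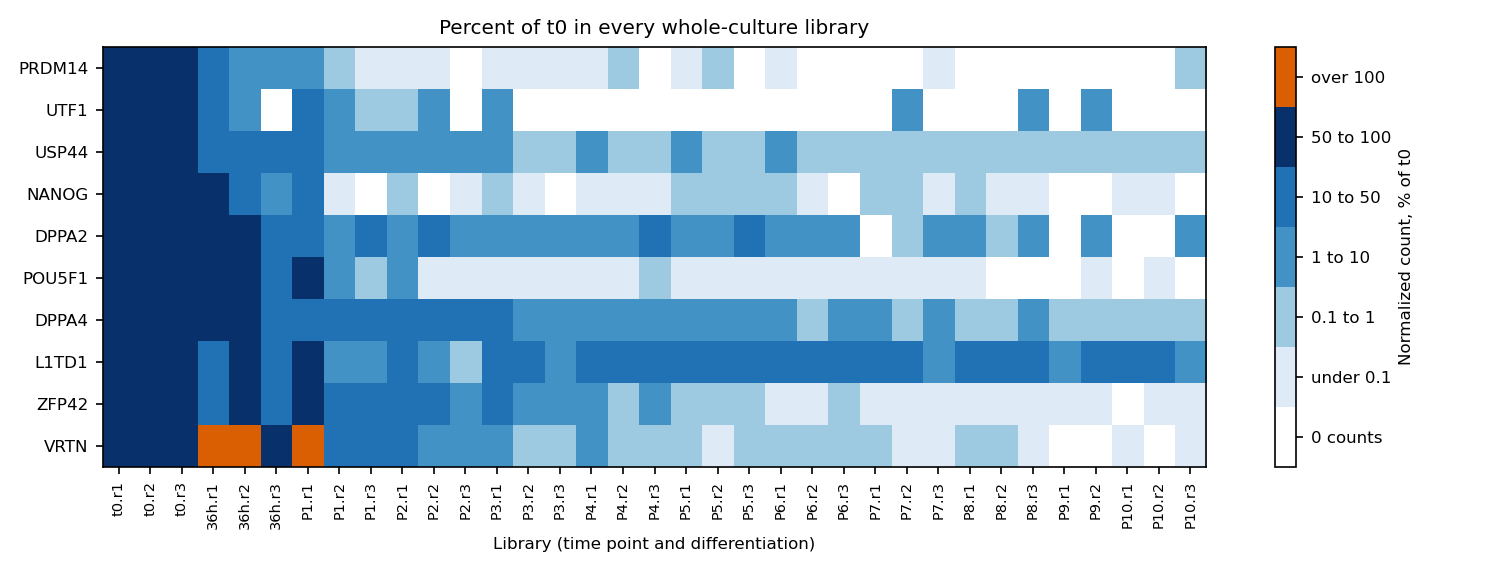
Percent of t0 in each of the 35 whole-culture libraries (columns, in order of time point and differentiation) for the 10 genes (rows, in order of their mean at P1), in 7 colour classes from 0 counts (white) to over 100% (orange). PRDM14, NANOG and POU5F1 turn pale between P1 and P3, DPPA4 and USP44 pass through the classes slowly, L1TD1 stays mostly at 10 to 50%, and VRTN alone has orange cells.

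The order of loss was read from the first time point after which a gene stayed under a given percent of t0. Under 50% were 16 of the 30 pairs of gene and differentiation by 36h, 26 by P1 and all 30 by P2. Under 10% were 5 pairs at 36h, 11 at P1, 19 at P2 and 24 at P3. As measured, under 1% were 0 at 36h, 5 at P1, 8 at P2, 13 at P3, 18 at P5 and 26 at P10. The 4 pairs that never stayed under 1% as measured were L1TD1 in all 3 differentiations and DPPA2 in r3. For DPPA2 in r3 a single count at P10 already makes 1.12%. For UTF1 and DPPA2 the floor of 3 counts lay above 1% of t0 in every later library, and above 10% in P6.r3. Their pairs counted under 1% were therefore not shown to be under it.

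PRDM14 and NANOG stayed under 1% of t0 from P2 in every differentiation. PRDM14 stayed under 10% from P1 in r1 and from 36h in r2 and r3, and under 1% from P2, P1 and P1. From P2 to P10 it never had more than 3 counts in a whole-culture library. At P8 all 3 libraries had 0 counts, at least 879-fold lower than t0 with 3 counts allowed per library. NANOG stayed under 1% from P2 in r1 and from P1 in r2 and r3. It then had between 0 and 15 counts per library. At P5 it had 12, 10 and 5 counts, all above the floor and 0.201% of t0 in the mean, and it was at 0.111% and 0.132% at P6 and P7. At P9 it had 0 counts in both libraries, at least 1335-fold lower than t0.

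POU5F1 also kept a trace for several passages, a smaller share of t0 in the mean than that of NANOG at P5, P6 and P7. It stayed under 1% from P3 in r1, P2 in r2 and P1 in r3. From P3 to P6 it was at 34, 20 and 8, then 24, 31 and 24, 36, 18 and 17, and 36, 19 and 6 counts in r1, r2 and r3, or 0.0116% to 0.121% of t0. At P7 it had 30, 2 and 2 counts, at P8 9, 0 and 0, and at P10 0, 2 and 0. In the mean of the P10 libraries, the counts assigned to POU5F1 itself were thus at least 19110-fold lower than at t0. At these low levels copies of the gene matter: the 7 listed POU5F1 copies held 0.404% to 0.433% of the summed counts at t0 but 33.3% to 37.9% at P5 and 77.8% to 100% at P10, and reads could have been divided between them and POU5F1.

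Reads could also have been divided between NANOG and its copies. The 11 listed NANOG copies held 28.9% to 31.1% of the summed counts at t0, most of them NANOGP8 with 1674, 1406 and 2154 counts. Adding NANOGP8 to NANOG changed little of the early course: the sum stood at 87.6%, 48.7% and 1.82% of t0 at 36h and at 27.2%, 0.0687% and 0 at P1. Later the 11 copies held 25.0% to 44.4% of the summed counts at P5, 64.7% to 85.7% at P7 and 58.3% to 100% at P10. The late trace of NANOG is thus as uncertain in origin as that of POU5F1. The 4 listed copies of DPPA2 had 0 counts from t0 to P5.

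In the mean over differentiations VRTN and ZFP42 kept the most of t0 at P1, 67.5% and 45.2%. VRTN had 7077, 7082 and 7186 normalized counts at t0, 10600, 2298 and 1445 at P1, 2223, 421 and 304 at P2, and 562, 37.2 and 13.3 at P3. It was called lower from P2 on (log2 fold change -3.70, SE 0.635, adjusted p = 7.3e-05) and stayed under 1% from P5 in r1 and from P3 in r2 and r3. At P9 and P10 it was at 0 to 3 counts, at least 2200-fold and 2441-fold lower than t0. VRTN thus kept the most of all members at 36h but, like POU5F1, was at or under the floor in every P10 library.

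ZFP42 kept 46.8%, 66.6% and 47.8% of t0 at 36h and 54.0%, 49.6% and 32.1% at P1, a narrower range over the differentiations than that of POU5F1. It was then at 32.2%, 18.1% and 9.90% at P2 and 21.3%, 6.09% and 5.27% at P3. Between P3 and P4 it went from 2448, 636 and 573 normalized counts to 212, 37.1 and 116, with no overlap. This step had a log2 fold change of -3.28 (SE 0.560, unadjusted p = 4.9e-06), but the adjusted p was 0.11 where 0% of all genes passed, and DESeq2 called it lower together with 0.0138% of all genes. ZFP42 was called lower than t0 from P2 on (log2 fold change -2.41, SE 0.522, adjusted p = 0.00072), and at P10 it had 0, 1 and 3 counts, at least 3754-fold lower than t0.

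Between P2 and P5, a comparison added after the levels had been seen, 3 members were called lower, where 0.538% of all genes were called lower. ZFP42 fell by 5.89 on the log2 scale (SE 0.639, adjusted p = 1.1e-05), VRTN fell by 5.99 (SE 0.781, adjusted p = 9.2e-05) and USP44 fell by 1.52 (SE 0.342, adjusted p = 0.0085). DPPA4 had a log2 fold change of -1.99 with an adjusted p of 0.040. PRDM14 was already at or under the floor in all 3 libraries at P2 and NANOG in 2 of 3, while POU5F1 was above it in each.

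USP44 was early to fall and slow to finish. After 6.36% of t0 in the mean at P1 it was at 3.49%, 1.5% and 1.14% at P2 and at 1.38%, 0.446% and 0.381% at P5. At P10 it kept 0.253%, 0.202% and 0.214% with 59, 29 and 46 counts, well above the floor in each library. Its log2 fold change at P10 was -8.90 (SE 0.461, adjusted p = 1.2e-12), and it had at least 10 counts in every whole-culture library.

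DPPA4 was lost gradually, in steps of unequal size. Its normalized counts were 34140, 32490 and 33640 at t0, 25540, 18180 and 8027 at 36h, 4286, 4239 and 3547 at P2, 1136, 617 and 1667 at P5, and 87.7, 53.2 and 212 at P10. It stayed under 10% from P4, P3 and P3 and under 1% only from P8, P6 and P10. The steps between neighbouring time points from 36h on ran from -1.33 on the log2 scale (36h to P1) to 0.24 (P8 to P9), and in r2 it was at 78.8 normalized counts at P8 and 298 at P9. No single step passed the test, while the whole course did (P10 against t0: log2 fold change -8.31, SE 0.791, adjusted p = 1.1e-08). At P10 it kept 0.257%, 0.164% and 0.631% of t0. Its neighbour DPPA2 had 111, 105 and 104 counts at t0, 65, 69 and 26 at 36h, 6, 7 and 24 at P1 and 5, 5 and 10 at P5. At P10 it had 0, 0 and 1 counts, at least 34.2-fold lower than t0, and its adjusted p was 0.0011 at P1 and 2.3e-07 at P10.

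UTF1 was the 1 member with libraries at or under the floor at 36h, from a start of 96 to 116 counts, and at P2 both it and PRDM14 were there in all 3 libraries. UTF1 had 5, 3 and 1 counts at P1 and 1, 3 and 0 at P2, and from P4 to P6 all 9 libraries had 0 counts. Counts of 1 or 2 returned in single libraries at P7, P8 and P9. At P10 it was at least 34.3-fold lower than t0, a bound set by its low level at the start.

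L1TD1 was lost least completely, with the highest percent of t0 of the 10 members in each P10 library. It was at 43970, 39620 and 44760 normalized counts at t0 and at 6611, 7974 and 1892 at P10, so that 15.0%, 20.1% and 4.23% were left. In r2 and r3 it passed through a minimum at P2, with 970 and 353 normalized counts or 2.45% and 0.789% of t0, and stood at 26.2% and 19.8% at P5. In r1 there was no minimum at P2, with 64.3% at P1, 26.6% at P2 and 16.1% at P5, but it was at its lowest at P9, with 3.87%, and at 15.0% at P10. The difference between P5 and P2 over the 3 differentiations was within their spread (log2 fold change 1.70, SE 0.859, adjusted p = 0.24). At P5 the 3 libraries had 7062, 10390 and 8876 normalized counts, or 78.7, 117 and 97.9 TPM, which is above the t0 level of PRDM14 in TPM. Its loss at P10 was called (log2 fold change -3.19, SE 0.875, adjusted p = 0.0036).

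**Figure D3:**
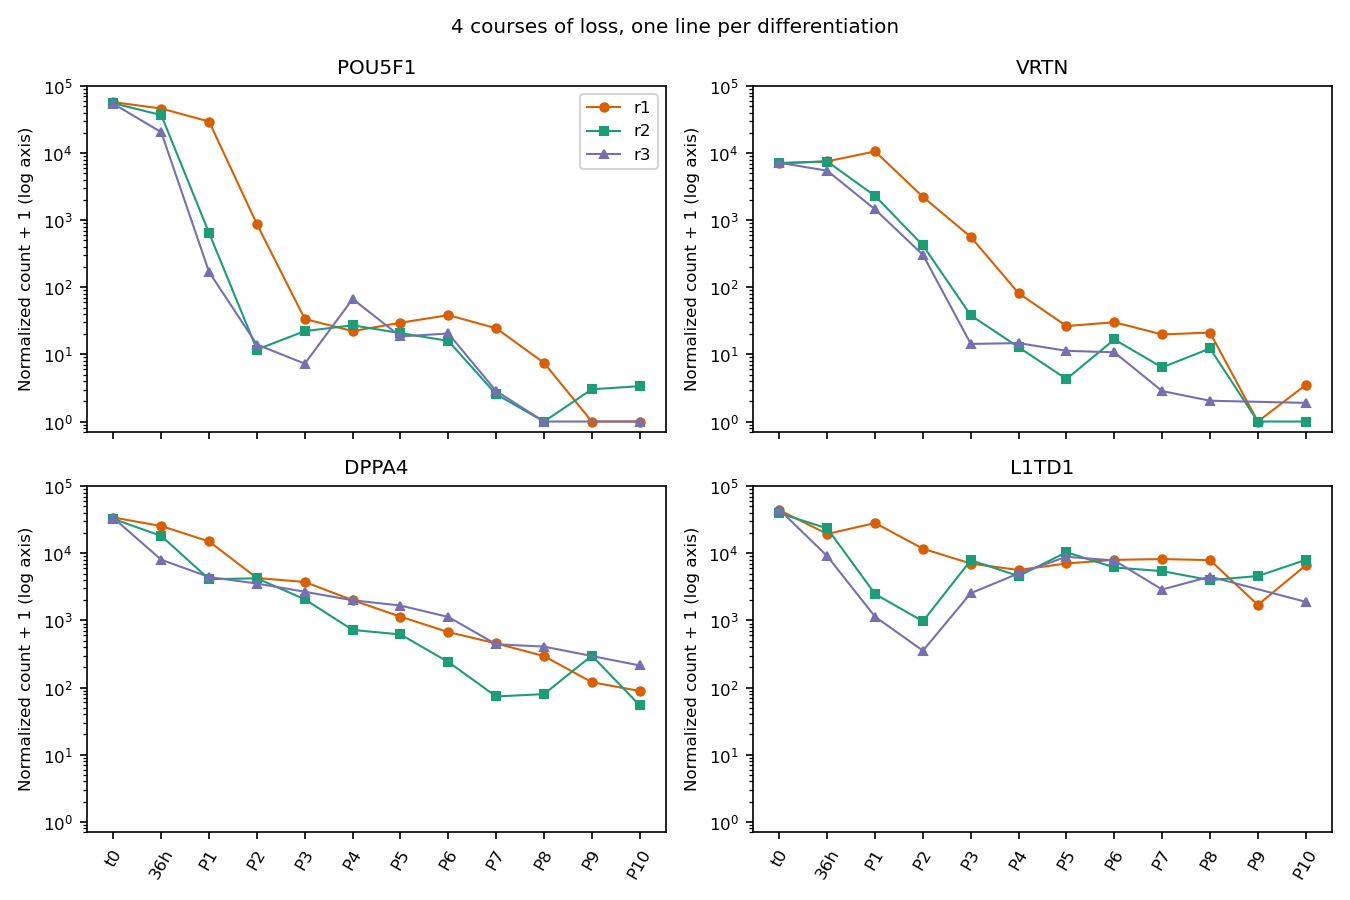
Normalized counts plus 1 (log axis) of POU5F1, VRTN, DPPA4 and L1TD1 from t0 to P10, with 1 line per differentiation; P9 has no r3 point and the r3 line joins P8 to P10. POU5F1 drops from 55680 in the mean at t0 to a trace under 100 by P3, VRTN starts later, DPPA4 declines gradually to P10, and L1TD1 dips at P2 in r2 and r3 and ends between 1892 and 7974.

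The study also asked how cultures change between P8 and P10. None of the members was called between P8 and P10 in either direction by edgeR or DESeq2, where edgeR called 0.0874% of all genes higher and 0% lower and DESeq2 called 1.39% either way, and 2 members had an unadjusted p under 0.05. These were USP44 (log2 fold change -1.02, SE 0.371, adjusted p = 0.15) and VRTN, with 28, 13 and 1 counts at P8 and 3, 0 and 1 at P10 (adjusted p = 0.23). The library P10.r1 stood apart from P10.r2 and P10.r3, and without it, an alternative added after seeing the data, edgeR again called 0 members in either direction, with 0 at an unadjusted p under 0.05, while it called 1.97% of all genes lower and 1.86% higher. At P10 the 10 members had at most 237 counts in any library, apart from L1TD1.

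Markers of other cell types were read beside the late members. Endoderm markers (SOX17, FOXA2, GATA6, CER1 and HHEX) summed to between 0.15 and 4.03 TPM at P10, with SOX17 and FOXA2 at or under the floor in every library. Of the germ cell list (NANOS3, DDX4, DAZL, TFAP2C and PRDM1), DDX4 and DAZL were at or under the floor in every P5, P8 and P10 library, while the sum was 22.0 to 33.6 TPM at P5 and 43.5 to 95.6 TPM at P10. Of that list, TFAP2C and PRDM1 were called higher at P10 than at t0, and both are also expressed outside germ cells. DAZL went the other way and was called lower at P10 than at t0 (log2 fold change -8.67, SE 1.3, adjusted p = 8.8e-05). NANOS3, an RNA-binding protein of germ cells, went from 4.07, 1.01 and 1.54 normalized counts at t0 to 96.1, 41.4 and 9.86 at P10 (log2 fold change 4.30, SE 0.841, adjusted p = 0.00016) and missed a call by its mean count of 24.8. The neural crest and mesenchyme list (SOX10, TFAP2B, SNAI2 and TWIST1) went from 2.56 to 3.47 TPM at t0 to 125 to 326 TPM at P5. TFAP2B, SNAI2 and TWIST1 were called higher at P5 than at t0. SOX10 was not called (log2 fold change 0.39, SE 0.886, adjusted p = 0.75). It had 114, 163 and 126 normalized counts at t0 and 63.7, 125 and 779 at P5 in r1, r2 and r3. The part of cells with such markers in the remaining DPPA4, L1TD1 and USP44 was not tested.

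The fractions of P5 and P8 were compared to see in which cells the remaining transcripts were more abundant. Of the 10 members, 7 had enough counts to be tested, all but PRDM14, DPPA2 and UTF1. Between P5_MES and P5_EPI edgeR called 0 of them, as it did 0% of all 18885 genes, 2 had an unadjusted p under 0.05 and DESeq2 called 2 (3.64% of all genes). Those 2 were DPPA4 and USP44, and they went in opposite directions. At P5 the neural crest and mesenchyme list summed to 340 to 433 TPM in MES against 54.8 to 189 TPM in EPI. At P8 the fractions overlapped, at 205, 309 and 754 TPM in MES and 49.2, 187 and 509 TPM in EPI, with MES the higher in each differentiation.

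DPPA4 had 867, 415 and 1151 normalized counts in P5_EPI and 1999, 1276 and 2493 in P5_MES, in r1, r2 and r3. MES was thus 2.31-fold, 3.08-fold and 2.17-fold above EPI within a differentiation (log2 fold change 1.38, SE 0.339, adjusted p = 0.045), and the groups did not overlap. At P8 the values were 263, 52.6 and 341 in EPI and 706, 132 and 548 in MES, or 2.68-fold, 2.51-fold and 1.61-fold (log2 fold change 1.13, SE 0.350, adjusted p = 0.32), with overlap. DPPA4 was therefore higher in MES in 6 of 6 pairs of fractions, which come from the same 3 differentiations at P5 and P8. In edgeR the difference did not reach the threshold at either passage, while DESeq2 called it at P5.

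USP44 was lower in MES. It had 333, 87.3 and 133 normalized counts in P5_EPI and 108, 34.4 and 38.9 in P5_MES (log2 fold change -1.60, SE 0.402, adjusted p = 0.047), and 178, 78.9 and 38.9 in P8_EPI and 140, 55.8 and 16 in P8_MES (-0.60, SE 0.404, adjusted p = 0.59). It was lower in MES in 6 of 6 pairs, and the groups overlapped at both passages. At P8 edgeR called 0 of the 7 members and 0% of all genes, 1 member had an unadjusted p under 0.05 and DESeq2 called 0 (0.297% of all genes).

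L1TD1 overlapped between the fractions, at 7526, 10620 and 9502 normalized counts in P5_EPI and 6900, 12350 and 10010 in P5_MES. Its log2 difference was 0.11 (SE 0.308) at P5 and 0.07 (SE 0.308) at P8, and at P5 each fraction of each differentiation held at least 15.7% of t0. POU5F1 had 63, 40 and 35 counts in P5_EPI against 20, 23 and 22 in P5_MES, and 12, 5 and 2 against 10, 0 and 1 at P8. Its log2 fold change at P5 was -0.71 (SE 0.525, adjusted p = 0.44). A change of the MES to EPI difference from P5 to P8 was tested for the 7 genes as an interaction term in edgeR, and the lowest adjusted p was 0.844.

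**Figure D4:**
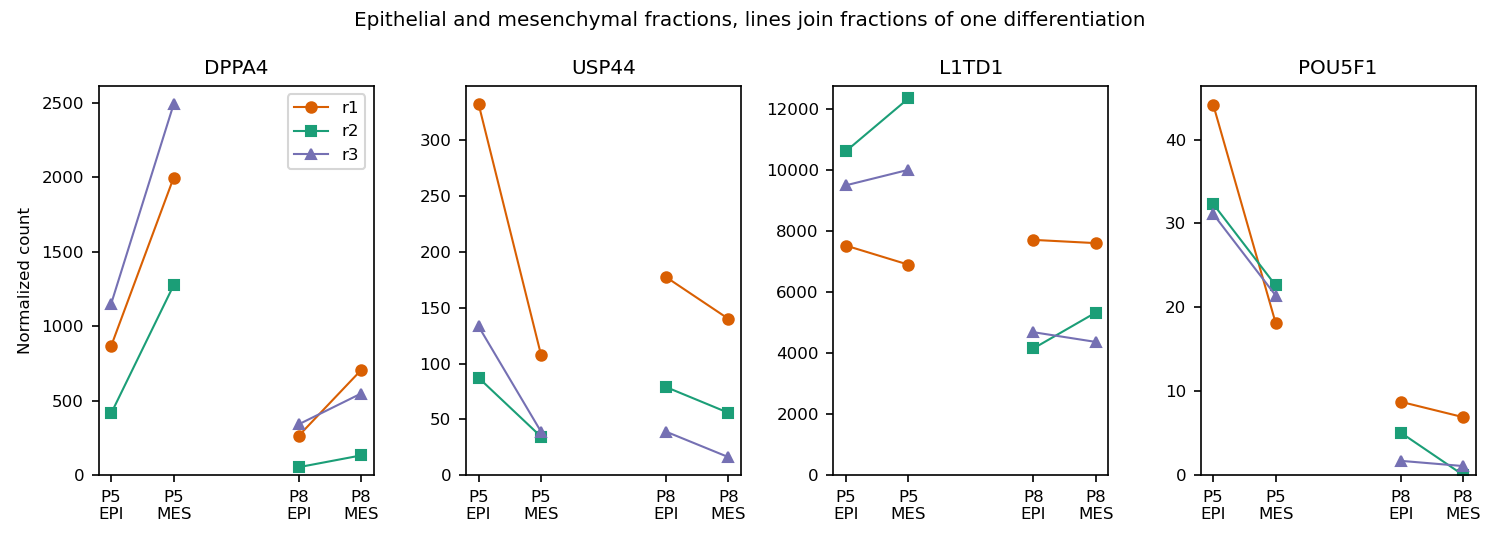
Normalized counts (linear axes from 0, a separate scale for each gene) of DPPA4, USP44, L1TD1 and POU5F1 in the EPI and MES fractions of P5 and P8, with lines that join the fractions of 1 differentiation. MES is above EPI for DPPA4 and below it for USP44 in all 6 pairs, while the L1TD1 lines are nearly level.

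Between P5 and P8 within a fraction, a comparison added after the levels had been seen, edgeR called 0 members in EPI (0.0318% of genes called lower) and 0 in MES (0.122%), with 5 and 4 members at an unadjusted p under 0.05 and 1 called by DESeq2 in each (0.868% and 0.853% of genes called lower). DPPA4 had log2 fold changes of -2.06 (SE 0.354, adjusted p = 0.019) in EPI and -2.31 (SE 0.356, adjusted p = 0.011) in MES.

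Other genes of the undifferentiated state were read from 2 lists, 18 genes of primed or shared pluripotency and 10 of naive pluripotency. Of the 18, all were tested, and at P10 10 were called lower than t0 and 0 higher, where 8.67% of all genes tested were called lower, with a median log2 fold change of -5.15 with the 4 genes at or under the floor in all P10 libraries at their bound (-5.87 fitted), against a fitted median of 0.01 over all genes tested. FOXH1, a partner of SMAD proteins in NODAL signalling, went from 2088, 2229 and 1964 normalized counts at t0 to 1, 3 and 2 counts at P10, at least 718-fold lower (adjusted p = 1.5e-08). The noncoding ESRG fell by 8.09 (SE 1.39, adjusted p = 3.6e-05) and PODXL, a surface sialomucin that carries the TRA-1-60 epitope, fell by 7.80 (SE 1.07, adjusted p = 2.1e-06).

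SOX2, the partner of POU5F1 and also a neural progenitor factor, took another course. It had 11300, 11360 and 12210 normalized counts at t0, 12580, 1409 and 264 at 36h, 5196, 180 and 193 at P1, and 12450, 9719 and 7900 at P5. At P10 it was at 12400 in r1 but at 30.8 and 43.9 in r2 and r3, and the difference from t0 was within this spread (log2 fold change -2.81, SE 1.33, adjusted p = 0.077). LIN28A, an RNA-binding protein that blocks let-7 maturation, kept 65810, 63190 and 43980 normalized counts at P5 from 100800, 106400 and 85930 at t0. At P10 it was at 19880, 78.1 and 34.9 and was called lower (log2 fold change -4.99, SE 1.15, adjusted p = 0.00082). In P10.r1, where SOX2 and LIN28A stayed highest, POU5F1, UTF1, DPPA2, PRDM14 and ZFP42 had 0 counts, VRTN had 3, NANOG 5 and USP44 59. For NANOG and USP44 this was the highest percent of t0 among the P10 libraries, while VRTN was at or under the floor in all 3.

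Of the 10 genes of naive pluripotency 8 were tested, and at P10 2 were called lower and 2 higher, where 8.67% of all genes tested were called lower and 9.45% higher. TBX3 (log2 fold change 11.2, SE 2.22, adjusted p = 0.00018) and KLF5 (4.23, SE 0.616, adjusted p = 4.6e-06) were the 2 called higher, and both are also expressed in many tissues outside the early embryo. At P10 TBX3 was at 4.18, 6503 and 7053 normalized counts in r1, r2 and r3 and KLF5 at 81.9, 1075 and 1742, from means of 1.6 and 48.8 at t0, so that P10.r1 stood far below the other P10 libraries for both. Over both lists 12 of the 26 genes tested were called lower at P10, and 5 with only the 2 groups compared.

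The genes whose course was most like the mean of the members were ranked by Pearson's r over the 35 whole-culture libraries, which share differentiations and t0. Among the first 5 of 13368 non-member genes were PDCD2L (r = 0.969), AC106864.1 (r = 0.968), MARVELD2 (r = 0.965) and MTMR14 (r = 0.962). These 4 were alike in shape but not in depth of loss. AC106864.1 went from 8570 ± 554 normalized counts at t0 to 0.876 ± 0.897 at P10, and MARVELD2 from 1901 ± 127 to 4.96 ± 3.29 (SD, n = 3). MTMR14 went from 2035 ± 54.9 to 978 ± 53.4, which is 48.0% of t0.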

How the data were processed

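RNA was sequenced with a polyA-selecting kit in 47 single-end libraries. The submitters' processing notes name cutadapt 1.16, STAR 2.5.2b, RSEM 1.3.0 and GRCh38, with no role or order; the annotation release, strand setting and filters are not given in the sources used here. The authors deposited RSEM expected counts per gene, of which 9.33% were not whole because RSEM divides reads between genes, and they were rounded here. The deposited TPM values, scaled per library by RSEM, were used for levels between genes only. Symbols and coordinates are from GENCODE 29 (57447 of 58051 identifiers matched, 604 did not).

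Normalized counts are rounded counts over edgeR TMM size factors of all 47 libraries. Groups were compared with edgeR 4.0.16 (glmQLFit, glmQLFTest; limma 3.58.1, R 4.3.3) in 1 fit of the 35 whole cultures (21750 genes after filterByExpr) and 1 of the 12 fractions (18885 genes), with the replicate number as a block. SE is the log2 fold change over the square root of F. The design text states that each of 3 experiments held all time points, which pairs the libraries. Deviations from group means of libraries with the same number correlated at 0.20 to 0.58 in the mean between neighbours from 36h to P8 and at -0.03 to 0.02 elsewhere. No pair of libraries differed by less than sampling noise. The scripts were tested on simulated data. Alternatives were no block, DESeq2 1.42.0, its size factors, other filters and thresholds, libraries left out, and other sets of libraries.

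The members and all gene lists were chosen with earlier results of these data known. All 10 members are named, SOX2 and LIN28A always, the 3 other pluripotency genes called with the largest change in each direction at P10, and the 5 genes most like the members, of which 1 is not reported here. P-values measure the spread that the replicate block leaves between libraries of 3 differentiations of 1 cell line, pooled over the groups of a fit. Time points of 1 differentiation are not independent of each other.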

Additional observations from a re-analysis of the deposited data

How the results depend on the processing

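The log2 fold changes of the 10 members against t0 at 36h, P1, P2, P5 and P10 were below 0 in 169 of the 170 values at 36h and in all 170 at each of the other time points, over the settings run. The exception was VRTN at 36h, which ranged from -0.28 to 0.094 with a replicate left out and turned above 0 without replicate 3. L1TD1 between the P8 fractions ranged from -0.039 to 0.14 and turned below 0 without replicate 2. The cause was not tested. Of 232 alternative values of counts and medians, 200 stayed within 1.5 times the count reported or within the spread between differentiations. At 36h the count of members called lower, 1, ranged from 0 to 2 when 1 replicate was left out, and was 0 without the replicate block, 0 with only the 2 groups compared, 2 with all 47 libraries in one fit, 2 at an adjusted p under 0.05, 2 without the mean minimum and 2 without P1.r1 or without P10.r1. At P1 the count of 5 ranged from 1 to 7 with a replicate left out, was 2 without the block and 0 with only the 2 groups compared, where fewer libraries estimate the spread. At P2 the count of 8 ranged from 4 to 8 and was 5 with only the 2 groups. From 36h to P1 the count of 1 ranged from 0 to 5, and was 0 without the block, 0 with only the 2 groups and 4 without P1.r1. From P1 to P2 it ranged from 0 to 3, and was 3 with DESeq2, 1 with all 47 libraries and 2 at an adjusted p under 0.05. From P2 to P3 it ranged from 0 to 1. Between the P5 fractions it was 2 with DESeq2 and 2 at an adjusted p under 0.05. Of the other pluripotency genes, 5 were called lower at P10 with only the 2 groups compared, against 12. Leaving out a replicate moved the median percent of t0 at P5, 0.251%, to between 0.216% and 0.294%. In comparisons where the block left the count unchanged or within 1.5 times, it was 7 against 8 at P2, P3 and P10. Over all genes DESeq2 called 688 between the P5 fractions where edgeR called 0, and the cause was not tested. Depth limits UTF1 and DPPA2 most, whose counts at t0 were 96 to 116.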
